A study of Mus musculus with 10 samples.

Results

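Transcripts of glycolysis, the pentose phosphate pathway and the citrate cycle, with a few genes of the response to low oxygen, were examined in bulk RNA libraries labelled as CD8+ T cells sorted from MC38 tumours. The set held 47 genes, chosen by name for their place in these pathways, out of 55487 in the table and 13930 tested. All 47 reached 1 TPM (transcript abundance relative to length and to the library total) in at least 5 of the 10 libraries. Slc2a3 lay just inside that limit, at 0.65 TPM in 1 library and at or above 1 TPM in 9. Every other member reached 1 TPM in all 10, and none fell outside. Aldoa has 2 annotated rows, of which the higher was used.

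The study concerns a phosphorylated serine of Ptpn22, which encodes the tyrosine phosphatase Pep, in CD8+ T cells of tumours. One group of mice carried the wild-type gene (WT), the other an allele with alanine in place of that serine (S452A). Mice of both genotypes were injected at 8 weeks of age with MC38, a colon carcinoma line of mouse origin, and tumours were taken on day 18, digested with collagenase and sorted, giving 5 libraries per genotype, each from a separately numbered mouse. The sources used here give neither strain nor sex, nor whether the allele was present in all cells. Depth is unknown, because TPM holds no read counts.

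Glucose enters cells through facilitative transporters and is split by glycolysis into pyruvate, which lactate dehydrogenase reduces to lactate or pyruvate dehydrogenase passes to the citrate cycle, while the pentose phosphate pathway draws off glucose 6-phosphate to make NADPH and ribose. Inflammatory macrophages and activated T cells are both known to raise glycolysis, macrophages also divert citrate cycle carbon to itaconate through Acod1, and low oxygen induces most glycolytic genes through the transcription factor encoded by Hif1a.

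The libraries held little T cell RNA. The summed level of 8 defining T cell genes (those of the CD3 chains, the T cell receptor constant regions and both CD8 chains), all above 0, was 12.1 to 126 TPM in WT and 14.96 to 135 TPM in S452A. For 12 macrophage and monocyte genes, all above 0, the sum was 18081 to 25063 TPM in WT and 18903 to 24490 TPM in S452A. Sums of 5 epithelial and carcinoma genes reached at most 5.01 and 5.22 TPM, and those of 6 fibroblast genes were 159.6 to 316 TPM in WT and 72.4 to 220.3 TPM in S452A. The values below therefore describe mixed libraries, and in them fewer cells of a type cannot be told apart from less RNA per cell.

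The pathway transcripts were abundant. Together the 47 genes took 6438 to 10297 TPM per library, and 15 of them averaged at least 100 TPM. The highest averages over the 10 libraries were those of Aldoa (1159 TPM), Gapdh (1128 TPM), Pkm (937 TPM), Acod1 (774 TPM), Tpi1 (772 TPM) and Ldha (699.9 TPM). This order is that of the genes' own rows: with near-identical copies elsewhere in the genome added, as described further on, Gapdh (1762 TPM), Pkm (1324 TPM) and Eno1 (1313 TPM) all averaged more than Aldoa. The lowest were those of Slc2a3 (1.87 TPM), Pfkm (3.41 TPM) and Aldoc (4.68 TPM). No member was listed at 0 in any library.

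Among the glucose transporters, Slc2a1, the widely expressed transporter GLUT1, led in every library. Slc2a1 was at 52.0, 92.5, 57.3, 75.9 and 45.8 TPM in WT libraries 1 to 5 and at 62.7, 67.9, 73.8, 74.8 and 61.0 TPM in S452A libraries 1 to 5. It held 51.1 to 69.4% of the summed TPM of Slc2a1, Slc2a3 and Slc2a6. Slc2a6, which encodes a transporter of macrophage lysosomes, was at 30.1, 42.1, 28.2, 34.9 and 41.5 TPM in WT libraries 1 to 5 and at 46.2, 29.3, 40.7, 57.1 and 28.3 TPM in S452A libraries 1 to 5. Slc2a3, the high-affinity transporter GLUT3 of neurons and lymphocytes, was at 2.59, 1.31, 1.89, 3.46 and 2.29 TPM in WT libraries 1 to 5 and at 1.99, 0.65, 1.28, 2.17 and 1.11 TPM in S452A libraries 1 to 5. The genotypes overlapped for all 3 genes.

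Hexokinases trap glucose as glucose 6-phosphate, and here Hk3, the form of myeloid cells, was the highest of 3 in all 10 libraries. Hk3 was at 27.4, 56.8, 39.6, 48.8 and 30.1 TPM in WT libraries 1 to 5 and at 46.3, 29.8, 51.5, 55.4 and 39.0 TPM in S452A libraries 1 to 5, a share of 48.0 to 58.6% of the family. Hk1, the housekeeping form, was at 17.2, 26.6, 18.9, 18.4 and 14.2 TPM in WT libraries 1 to 5 and at 19.6, 15.5, 18.1, 20.8 and 18.6 TPM in S452A libraries 1 to 5. Hk2, the form known to be induced by hypoxia, was at 12.4, 19.6, 16.5, 18.1 and 11.3 TPM in WT libraries 1 to 5 and at 13.6, 14.1, 19.4, 18.3 and 12.6 TPM in S452A libraries 1 to 5. WT library 2 was the highest WT library for all 3 hexokinases, and WT library 5 was the lowest for Hk1 and Hk2.

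Phosphofructokinase commits sugar to glycolysis, and its platelet-type subunit gene Pfkp was ahead of the liver-type gene Pfkl and the muscle-type gene Pfkm in every library. Pfkp was at 44.1, 94.4, 54.5, 67.7 and 44.5 TPM in WT libraries 1 to 5 and at 68.5, 66.7, 87.5, 91.2 and 62.3 TPM in S452A libraries 1 to 5. Pfkl was at 36.4, 44.8, 39.4, 31.4 and 31.4 TPM in WT libraries 1 to 5 and at 41.2, 41.3, 29.4, 38.8 and 39.9 TPM in S452A libraries 1 to 5. Pfkm was at 2.80, 4.71, 5.94, 2.13 and 2.82 TPM in WT libraries 1 to 5 and at 4.92, 3.30, 2.76, 2.47 and 2.25 TPM in S452A libraries 1 to 5. Their median shares of the family were 59.8% for Pfkp, 36.5% for Pfkl and 3.12% for Pfkm.

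The activator of phosphofructokinase, fructose bisphosphate of the regulatory kind, is made and removed by the enzymes of the Pfkfb genes. Pfkfb3, whose product strongly favours synthesis, was at 34.6, 68.2, 51.0, 51.9 and 50.3 TPM in WT libraries 1 to 5 and at 36.5, 45.8, 63.9, 66.5 and 73.6 TPM in S452A libraries 1 to 5. Pfkfb4 was at 18.5, 14.9, 12.8, 14.4 and 12.9 TPM in WT libraries 1 to 5 and at 13.3, 17.6, 13.5, 15.3 and 14.4 TPM in S452A libraries 1 to 5. Pfkfb3 held 65.2 to 83.6% of their sum, and the genotypes overlapped for both genes.

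Lower glycolysis was carried by 1 dominant isozyme at each step where the set held more than 1. Aldoa, the muscle-type aldolase of most tissues, was at 817, 1659, 1073, 1115 and 853 TPM in WT libraries 1 to 5 and at 1273, 1278, 1329.8, 1247 and 945 TPM in S452A libraries 1 to 5. Aldoc, the brain-type aldolase, was at 3.16, 6.70, 4.54, 4.35 and 3.31 TPM in WT libraries 1 to 5 and at 3.76, 7.41, 4.84, 5.24 and 3.45 TPM in S452A libraries 1 to 5. Aldoc made up 0.294 to 0.576% of the pair. Eno1, the ubiquitous enolase, was at 259, 413, 370.3, 346 and 264 TPM in WT libraries 1 to 5 and at 381, 398, 314, 344 and 268 TPM in S452A libraries 1 to 5. Eno2, the neuronal enolase, was at 3.73, 2.80, 7.56, 8.48 and 2.28 TPM in WT libraries 1 to 5 and at 12.97, 5.17, 12.1, 14.3 and 7.13 TPM in S452A libraries 1 to 5. Eno2 varied more between libraries than any other member, 6.27-fold from the lowest to the highest, and took 0.673 to 3.98% of the pair. Gpi1, the isomerase between hexokinase and phosphofructokinase, was at 264, 406, 303, 273 and 221 TPM in WT libraries 1 to 5 and at 351, 331, 349.6, 327 and 248 TPM in S452A libraries 1 to 5. Gapdh, the dehydrogenase often used as a reference gene, was at 936, 1337, 1200.1, 1058 and 962 TPM in WT libraries 1 to 5 and at 1325, 1236, 1075, 1108 and 1048 TPM in S452A libraries 1 to 5. Tpi1, the triose phosphate isomerase, was at 566, 1007, 824, 716 and 568 TPM in WT libraries 1 to 5 and at 775, 922, 859.9, 774 and 704 TPM in S452A libraries 1 to 5. Of the 16 members from hexokinase to pyruvate kinase, 13 had WT libraries 1 and 5 as their lowest WT libraries, and 14 had WT library 2 as the highest. The other steps were covered by Pgk1 (131 to 251.6 TPM over the 10 libraries), the phosphoglycerate mutase gene Pgam1 (177 to 258 TPM) and the pyruvate kinase gene Pkm (657 to 1245 TPM). The table gives 1 value per gene, so the splice forms of Pkm were not separated.

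At the lactate step Ldha, whose subunit favours the formation of lactate, held 96.5 to 99.0% of the sum with Ldhb, the heart-type subunit. Ldha was at 557, 855, 725, 677 and 556 TPM in WT libraries 1 to 5 and at 748, 803, 719, 687 and 671 TPM in S452A libraries 1 to 5. Ldhb was at 16.5, 8.74, 19.7, 15.5 and 20.4 TPM in WT libraries 1 to 5 and at 14.2, 18.2, 7.40, 10.8 and 12.1 TPM in S452A libraries 1 to 5. Ldhb was lowest in S452A library 3 and WT library 2, and the ratio of Ldha to Ldhb ran from 27.2 in WT library 5 to 97.8 in WT library 2. Of the monocarboxylate transporters, Slc16a3, which exports lactate from glycolytic cells, was at 91.3, 119, 98.5, 104 and 73.0 TPM in WT libraries 1 to 5 and at 108, 107, 124, 100.4 and 87.6 TPM in S452A libraries 1 to 5. Slc16a1, which moves lactate either way, was at 6.20, 7.27, 11.6, 10.3 and 8.20 TPM in WT libraries 1 to 5 and at 8.48, 12.4, 7.23, 7.83 and 7.98 TPM in S452A libraries 1 to 5. Slc16a3 held 89.4 to 94.5% of the pair.

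**Figure D1:**
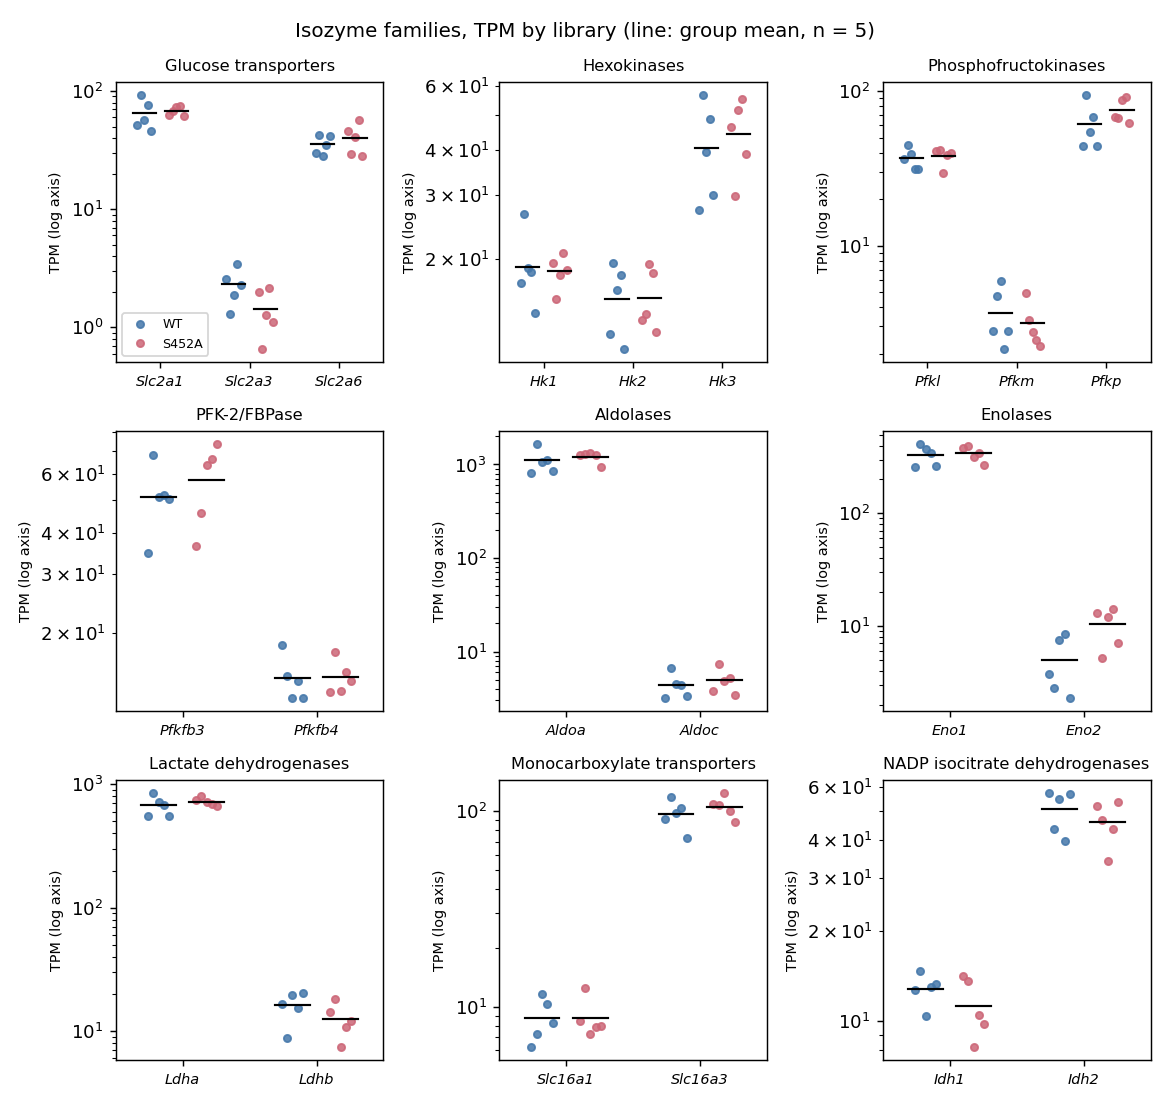
TPM of the members of 9 isozyme families in each library, on log axes; points are libraries (blue WT, red S452A, n = 5 each) and black lines group means. In each family 1 gene leads in all 10 libraries, as Hk3 does with 48.0 to 58.6% of the hexokinase sum, and the genotypes overlap for every gene.

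Of 15 isozyme shares tested between genotypes, 0 passed after Benjamini-Hochberg adjustment over the 15, and 2 had an unadjusted p under 0.05 (2-sided exact permutation, for which 0.00794 is the smallest p with 5 against 5). The families hold members of the set only. They leave out, among others, the enolase gene Eno3 (averages of 7.77 TPM in WT and 8.17 TPM in S452A) and the transporter gene Slc2a8 (5.03 and 3.52 TPM). Of the enolase pair, Eno2 held 1.47 ± 0.73% in WT libraries and 2.97 ± 1.08% in S452A libraries (SD, n = 5; exact 2-sided permutation p = 0.0397, adjusted p = 0.357), a difference of 1.503 percentage points. Of the transporter sum, Slc2a3 held 2.35 ± 0.86% in WT libraries and 1.28 ± 0.44% in S452A libraries (SD, n = 5; exact 2-sided permutation p = 0.0476, adjusted p = 0.357). The shares of Hk3 (53.5 ± 3.44% and 56.1 ± 3.56%) and Pfkp (59.3 ± 6.47% and 64.3 ± 6.33%), as WT then S452A (SD, n = 5), did not pass (exact permutation p = 0.270 for each, adjusted p = 0.663). When transcripts of near-identical gene copies, described further on, were added to Eno1, the Eno2 difference fell to 0.37 percentage points. This raised the average of Eno1 from 336 to 1313 TPM and left the levels of Eno2 as they were, so the smaller difference reflects the larger sum.

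Pyruvate dehydrogenase, the gate to the citrate cycle, was represented by Pdha1 (20.9 to 35.1 TPM) and Pdhb (41.3 to 58.1 TPM), subunit genes of its catalytic component, and by Pdk1 (12.4 to 25.4 TPM), a kinase that inactivates it. The ratio of Pdk1 to Pdha1 was 0.466 to 0.904 over the libraries, highest in S452A library 2. In the citrate cycle, Mdh2, the mitochondrial malate dehydrogenase, was the most abundant of 10 members (117 to 157 TPM) and, at 1.34-fold from lowest to highest library, also the steadiest of them. Mdh1, its cytosolic counterpart, followed at 65.4 to 114 TPM. Idh2, the mitochondrial NADP-dependent isocitrate dehydrogenase, was at 57.5, 43.7, 54.9, 39.8 and 57.0 TPM in WT libraries 1 to 5 and at 52.0, 46.5, 34.2, 43.4 and 53.4 TPM in S452A libraries 1 to 5. Idh1, the cytosolic enzyme of the same reaction, was at 12.7, 14.6, 10.4, 12.96 and 13.3 TPM in WT libraries 1 to 5 and at 14.1, 13.6, 8.18, 10.4 and 9.78 TPM in S452A libraries 1 to 5. Idh2 held 74.9 to 84.5% of their sum, with both genes lowest in S452A library 3. Sucla2, a subunit of succinyl-CoA ligase, was at 24.6, 25.6, 34.9, 28.1 and 30.8 TPM in WT libraries 1 to 5 and at 30.0, 24.5, 20.7, 29.3 and 32.4 TPM in S452A libraries 1 to 5. Cs, the citrate synthase that opens the cycle, ranged from 34.3 to 52.8 TPM, Idh3a from 18.5 to 31.98 TPM, Ogdh from 18.4 to 27.1 TPM, Suclg1 from 18.0 to 39.4 TPM and the fumarase gene Fh1 from 19.7 to 44.2 TPM.

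Acod1, which makes itaconate from the cycle intermediate cis-aconitate, outweighed every citrate cycle enzyme in the set. Acod1 (ENSMUSG00000022126, chromosome 14, 103046977 to 103056573, GRCm38) was at 378, 921, 550.0, 766 and 654 TPM in WT libraries 1 to 5 and at 762, 501, 1307, 1203 and 701 TPM in S452A libraries 1 to 5. S452A libraries 3 and 4 were the highest and WT library 1 the lowest, and the genotypes overlapped. Against Idh3a, a subunit of the next enzyme on the route that itaconate synthesis leaves, Acod1 was 13.3 to 65.0 times as high.

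Of the pentose phosphate genes, Taldo1, the transaldolase of the non-oxidative branch, varied 1.15-fold over the 10 libraries (172 to 198 TPM), the smallest range of any member. Tkt, the transketolase of that branch, was at 204, 169, 163, 155 and 170.2 TPM in WT libraries 1 to 5 and at 192, 153, 143, 146 and 177 TPM in S452A libraries 1 to 5. Pgd, which makes NADPH in the oxidative branch, was at 99.2, 143, 99.5, 105 and 106 TPM in WT libraries 1 to 5 and at 114, 81.2, 95.04, 110.5 and 89.4 TPM in S452A libraries 1 to 5. G6pdx, the enzyme that opens the pathway, ranged from 24.9 to 45.9 TPM, with S452A library 1 highest.

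The balance between pathways varied from library to library, with a wider range on the side of glycolysis. The summed TPM of the 16 members from hexokinase to pyruvate kinase ran from 3964 in WT library 1 to 6817 in WT library 2, and averaged 5062 ± 1153 over WT libraries and 5461 ± 521 over S452A libraries (SD, n = 5). The sum of the 10 citrate cycle members ran only from 387 to 525 TPM, averaging 478 ± 33.6 and 449.8 ± 55.4 in that order. The ratio of these sums was 7.55, 15.6, 10.8, 10.9 and 8.78 in WT libraries 1 to 5 and 11.5, 12.2, 14.0, 14.1 and 9.62 in S452A libraries 1 to 5. Both extremes of the ratio were WT libraries, and no test was run on it, since it is a score over the members. The ratio of the pentose phosphate sum to the citrate cycle sum stayed between 0.925 and 1.26. All these sums hold the genes' own rows only. Near-identical copies, described further on, averaged 977 TPM for Eno1, 702 TPM for Pgk1 and 634 TPM for Gapdh. No citrate cycle or pentose phosphate member had such a copy, so with copies added the ratio of glycolysis to the citrate cycle would be higher.

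**Figure D2:**
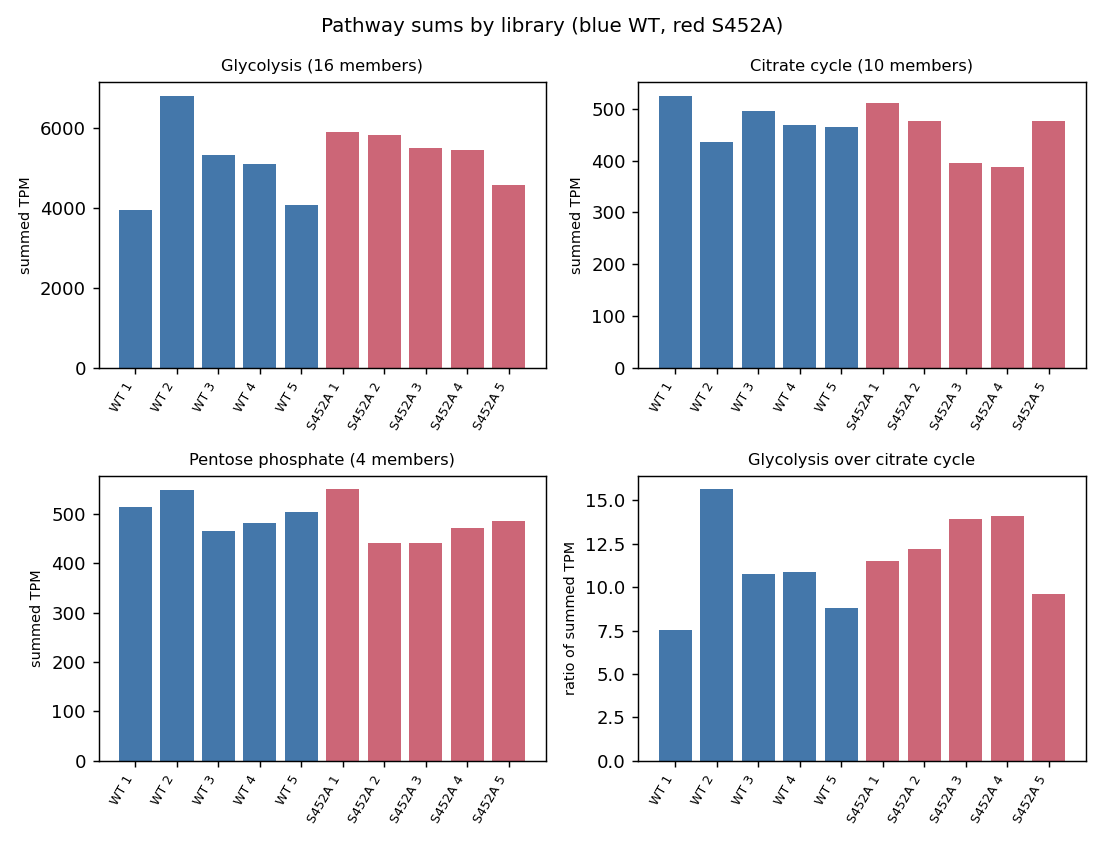
Summed TPM of glycolysis (hexokinase to pyruvate kinase), citrate cycle and pentose phosphate members, and the ratio of the glycolysis sum to the citrate cycle sum, for each library (bars; blue WT, red S452A). The glycolysis sum spans 3964 to 6817 TPM and its ratio to the citrate cycle 7.55 to 15.6, both extremes being WT libraries. Near-identical copies of glycolytic genes are not included.

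Most glycolytic genes correlated positively across libraries with Bnip3, although no single correlation passed the test. Bnip3 is a mitophagy receptor gene outside glycolysis, known as a target of hypoxia-inducible factor. Bnip3 (ENSMUSG00000078566, chromosome 7, 138890836 to 138909519, minus strand, GRCm38) was at 59.1, 105, 57.0, 64.5 and 60.9 TPM in WT libraries 1 to 5 and at 76.7, 117, 94.8, 103 and 58.9 TPM in S452A libraries 1 to 5. S452A library 2 and WT library 2 were the highest, and 4 of 5 WT libraries with S452A library 5 formed the low end. The other members of the hypoxia group were Hif1a, the oxygen-regulated subunit of the factor, Egln3, a prolyl hydroxylase that marks it for destruction and is itself induced by it, and Ero1l, an oxidase of the endoplasmic reticulum. Hif1a was at 47.3, 71.1, 72.5, 95.3 and 80.4 TPM in WT libraries 1 to 5 and at 82.1, 64.1, 127.9, 95.4 and 73.7 TPM in S452A libraries 1 to 5. Egln3 ranged from 2.06 to 8.58 TPM and Ero1l from 43.1 to 127 TPM, and WT library 1 was the lowest WT library for both.

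Hypoxia-inducible factor binds the core letters ACGTG or GCGTG, and promoter windows of Bnip3 and of 4 glycolytic members with positive r, 1 of them without these letters, are shown for that reason. Each is the 250 bases before a RefSeq start site (GRCm38.p6), written in the direction of transcription, with every ACGTG or GCGTG, or their reverse complements CACGT and CACGC, in capitals.
Bnip3 (chr7:138909507-138909756, minus strand): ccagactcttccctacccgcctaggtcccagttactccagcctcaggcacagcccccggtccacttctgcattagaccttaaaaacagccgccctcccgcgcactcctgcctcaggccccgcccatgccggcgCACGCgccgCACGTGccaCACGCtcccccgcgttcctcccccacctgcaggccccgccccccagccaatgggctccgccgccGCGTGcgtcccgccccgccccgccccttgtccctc
Ldha (chr7:46845554-46845803, plus strand): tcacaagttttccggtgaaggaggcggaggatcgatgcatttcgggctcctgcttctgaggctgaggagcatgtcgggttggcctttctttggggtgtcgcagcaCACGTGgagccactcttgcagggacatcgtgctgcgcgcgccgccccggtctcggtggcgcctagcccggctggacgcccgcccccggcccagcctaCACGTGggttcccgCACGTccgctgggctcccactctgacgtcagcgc
Pgk1 (chrX:106186850-106187099, plus strand): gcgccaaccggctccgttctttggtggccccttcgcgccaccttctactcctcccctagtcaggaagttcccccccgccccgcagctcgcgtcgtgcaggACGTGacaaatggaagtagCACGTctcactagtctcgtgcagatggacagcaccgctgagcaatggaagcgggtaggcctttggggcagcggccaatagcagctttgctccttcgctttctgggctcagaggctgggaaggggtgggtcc
Pfkp (chr13:6648772-6649021, minus strand): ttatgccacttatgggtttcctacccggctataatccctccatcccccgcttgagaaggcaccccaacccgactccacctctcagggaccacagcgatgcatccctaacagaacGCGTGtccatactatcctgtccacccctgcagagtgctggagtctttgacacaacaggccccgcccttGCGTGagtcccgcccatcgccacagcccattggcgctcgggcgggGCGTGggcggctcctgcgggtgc
Gpi1 (chr7:34230337-34230586, minus strand): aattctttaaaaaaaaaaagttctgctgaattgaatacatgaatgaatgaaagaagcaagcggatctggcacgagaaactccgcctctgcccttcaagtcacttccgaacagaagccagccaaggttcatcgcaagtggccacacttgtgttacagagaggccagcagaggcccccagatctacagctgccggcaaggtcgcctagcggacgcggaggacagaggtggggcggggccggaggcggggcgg
Ldha has 2 windows, of which the one with more matches is shown and the other held 1 match. The window of Bnip3 and the one shown for Ldha each held 5 matches, counted with overlaps, since CACGTG holds both CACGT and ACGTG. Pgk1 held 2 matches, Pfkp 3 and Gpi1 none. The 4 glycolytic members shown were not those with the highest r. Of those not shown, Aldoc (r = 0.86) and Aldoa (0.81) held at most 1 match per window, and Tpi1 (0.73) held none. Windows were found for 45 members (not for Slc2a3 and Idh3a; Ero1l is listed there as Ero1a), 65 windows in all, since some genes have several. Of these 65, 53 (81.5%) held at least 1 match, against 38.6% of 32851 windows of all genes and 55.3% of 11942 windows of genes tested here. The letters contain a CpG, and median GC content was 60.4% in the members' windows, 59.6% in those of genes tested and 52.4% in all windows. Windows of the same gene can overlap. Counted by gene, 40 of the 45 members (88.9%) held a match in any window, against 61.3% of genes tested and 41.5% of all genes. The matches were not limited to glycolysis, as 7 of 9 citrate cycle genes and 4 of 4 pentose phosphate genes with a window also held 1. The E-box CACGTG, which other factors also bind, was in 9 of the 65 windows, in 991 of 11942 windows of genes tested and in 1978 of all 32851. Some of the 9 were overlapping windows of Ogdh, so they are not 9 genes. A match is a description of these letters and does not show binding.

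Pearson correlation with Bnip3 was computed on log2(TPM + 1) over the 10 libraries for each of the other 13929 genes, with a permutation p from 100000 resamples adjusted over all of them. None of the 46 members passed (0.0% of all genes passed in either direction, smallest adjusted p of a member 0.806), so no single relation was called. At an unadjusted p under 0.05, 9 members (19.6%) had a positive r and 0 a negative r, beside 2.36% and 3.63% of all genes. Those 9 were Aldoc, Aldoa, Pfkp, Gpi1, Tpi1, Pgam1, Slc2a1, Ldha and Slc16a3. The median r was 0.28 for the 46 members and -0.05 for all genes. Genes that share a library are not independent, so these shares are descriptions.

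By role and over all 10 libraries, r with Bnip3 was above 0 for 16 of 16 members from hexokinase to pyruvate kinase. It was below 0 for 9 of 10 citrate cycle members, where 45.7% of all genes had r above 0. The 16 of 16 did not hold in every alternative. Pfkl was at -0.13 and Pfkm at -0.17 without the 2 libraries farthest from the median of Bnip3. Of the citrate cycle, Ogdh (0.20) was then above 0 and Idh1 (-0.39) below. Centred on the genotype means, Eno2 was at -0.22. The median r was 0.52 for hexokinase to aldolase, 0.62 for triose phosphate to pyruvate, -0.41 for the citrate cycle and -0.02 for the pentose phosphate group. Aldoc had the highest r of any member, at 0.86 (Spearman rho = 0.77, permutation p = 0.00155, adjusted p = 0.806), and 0.71 without S452A library 2 and WT library 2, which lay farthest from the median of Bnip3. Aldoa followed at 0.81 (rho = 0.81, permutation p = 0.00514, adjusted p = 0.806), and was at 0.78 without those libraries. Pfkp was at 0.77 (rho = 0.72, permutation p = 0.0126, adjusted p = 0.806) and Gpi1 at 0.76 (rho = 0.70, permutation p = 0.0128, adjusted p = 0.806), with 0.87 and 0.72 without them. Tpi1 was at 0.73 (rho = 0.65, permutation p = 0.017, adjusted p = 0.806), and at 0.54 without them.

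Some glycolytic genes had little correlation with Bnip3 over all 10 libraries. Eno2 (r = 0.18), Pfkm (0.06) and Slc16a1 (0.06) lay near 0, and Hif1a itself was at 0.26. These values depended on the libraries used. For Eno2 r was 0.72, for Hif1a 0.69, for Pfkm -0.17 and for Slc16a1 -0.29 without the 2 libraries farthest from the median of Bnip3. Centred on the genotype means, Eno2 was at -0.22 and Hif1a at 0.10. Idh2 had the lowest r, at -0.61 (rho = -0.62, permutation p = 0.0616, adjusted p = 0.806), followed by Sucla2 at -0.57, Slc2a3 at -0.55, Tkt at -0.54 and Ldhb at -0.52. Without the 2 libraries farthest from the median of Bnip3, r was -0.70 for Idh2, -0.48 for Sucla2, -0.18 for Slc2a3, -0.60 for Tkt and -0.78 for Ldhb. So within the lactate dehydrogenase and transporter families the minor isozyme genes Ldhb and Slc2a3 had r of the opposite sign to Ldha (0.68) and Slc2a1 (0.70). These differences in r between isozymes were not tested.

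Centring on the genotype means left 9 members at an unadjusted p under 0.05 with positive r, beside 2.33% of all genes. Without the 2 libraries farthest from the median of Bnip3 there were 7 positive (15.2%, beside 7.82% of all genes) and 3 negative (beside 7.71%; exact permutation with n = 8). With near-identical copies added to their genes, an alternative chosen after the values were seen, there were 16 positive (34.8%, beside 3.63%) and 1 negative (beside 3.72%). No member passed the adjustment in any of these.

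Of 25 further genes of the hypoxia response, 23 were tested, and 18 of those 23 had r above 0, with a median of 0.45 over the 23. The highest were Bnip3l, the paralogue of Bnip3 (0.75), Gys1, glycogen synthase (0.75), Vegfa, the angiogenic factor (0.72), Vhl, the ligase subunit that removes the factor (0.70), and Adm, adrenomedullin (0.68), each with an adjusted permutation p of 0.806. Ankrd37 and Ddit4, also known hypoxia targets, were at 0.09 and 0.11. The 5 genes below 0 were Arnt (-0.40), Angptl4 (-0.36), Ak4 (-0.16), Gbe1 (-0.07) and Car9 (-0.05). Among marker lists for cell types and proliferation and the mitochondrial share of TPM, 12 relations with Bnip3 in all, none passed (smallest adjusted permutation p = 0.195). The neutrophil list had r = 0.65, the natural killer cell list -0.64, the B cell list -0.61, the proliferation list -0.61, the T cell list -0.34 and the macrophage list 0.04. Ly6g of the neutrophil list was at 0 in all libraries, and the 3 natural killer cell genes summed to at most 1.93 TPM. The part of these cells in the covariation was not tested.

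**Figure D3:**
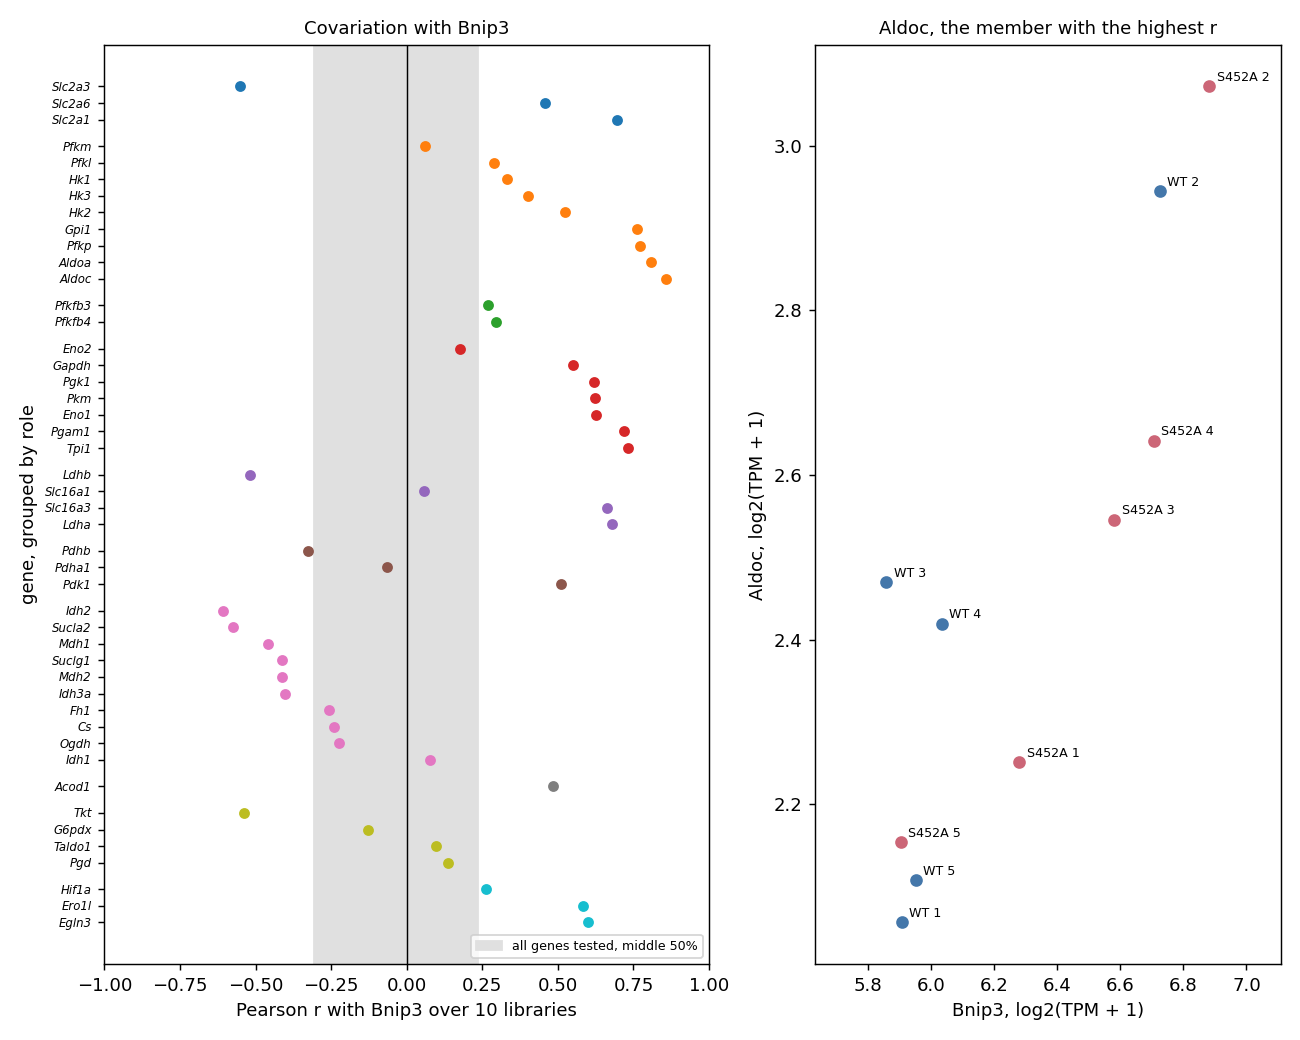
Left, Pearson r with Bnip3 over 10 libraries for each of the other 46 members, grouped by role and coloured by group, with the grey band spanning the middle 50% of all genes tested; right, Aldoc against Bnip3 as log2(TPM + 1), 1 point per library (blue WT, red S452A). Over these 10 libraries, members from hexokinase to pyruvate kinase all lie above 0 and 9 of 10 citrate cycle members below it. The right panel shows r = 0.86. With genotype centring, or without the libraries farthest from the median of Bnip3, not all of these glycolytic members lay above 0. The same held within either genotype alone.

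Between genotypes, none of the 47 members passed limma over all genes (adjusted p under 0.05), where 1 of 13930 genes (0.00718%) did. The smallest adjusted p of a member was 0.952. At an unadjusted p under 0.05 there was 1 member, Eno2, beside 4.74% of all genes, and 0 members by an exact Wilcoxon rank-sum test, while the genotypes overlapped for all 47, beside 0.646% of all genes for which they did not. Differences are S452A minus WT in log2(TPM + 1), a scale that shrinks the changes of low genes. In all, 32 members (68.1%) lay above 0, beside 46.6% of all genes, with a median of 0.06 against -0.02 for all genes. Rescaling without mitochondrially encoded genes, which took 5.08 ± 1.198% of WT TPM and 3.84 ± 0.69% of S452A TPM (SD, n = 5), shifts all genes of a library alike, and left 27 members above 0, with a median of 0.04 against -0.03 for all genes. Single libraries moved the members' median, to 0.00 without WT library 5 (26 above 0), 0.01 without WT library 1 (25 above 0), 0.03 without S452A library 1 or 2 (27 above 0 for each), 0.08 without WT library 3 (32 above 0) and 0.13 without WT library 2 (31 above 0). The 95% interval lay within 1 unit of log2(TPM + 1) on either side of 0 for 45 members (95.7%, beside 86.9% of all genes), the exceptions being Eno2 and Acod1. For low genes such as Slc2a3 a unit on this scale is more than a 2-fold change in TPM.

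Members of glycolysis and the hypoxia group mostly lay above 0, and those of the citrate cycle and the pentose phosphate pathway mostly below. All 7 members from triose phosphate to pyruvate were above 0 (median 0.13), as were 7 of 9 from hexokinase to aldolase (median 0.13), 4 of 4 of the hypoxia group (median 0.22) and 3 of 3 of the pyruvate dehydrogenase group (median 0.05). By contrast 8 of 10 citrate cycle members (median -0.09) and 3 of 4 pentose phosphate members (median -0.11) were below 0. None of these differences passed, and 20 of the 47 changed sign when 1 library or another was left out.

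Eno2 (ENSMUSG00000004267, chromosome 6, 124760053 to 124769673, minus strand, GRCm38) had the largest difference. Eno2 averaged 4.97 TPM (SD 2.85, n = 5) over WT libraries and 10.3 TPM (SD 3.96, n = 5) over S452A libraries. The difference was 0.97 log2 units (SE 0.35, 95% interval 0.22 to 1.73), with a limma adjusted p of 0.952 (unadjusted 0.0154). All 5 S452A libraries lay above WT libraries 1, 2 and 5, but S452A libraries 2 and 5 lay below WT libraries 3 and 4. Leaving out 1 library at a time gave differences of 0.79 to 1.17, and a pseudocount of 5 in place of 1 gave 0.62. Over all alternatives its adjusted limma p was at least 0.730.

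Bnip3 averaged 69.3 TPM (SD 20.1, n = 5) over WT libraries and 90.2 TPM (SD 22.8, n = 5) over S452A libraries. It differed by 0.38 log2 units (SE 0.21, 95% interval -0.07 to 0.82), with a limma adjusted p of 0.952. With 1 library left out it ranged from 0.27 (without S452A library 2) to 0.53 (without WT library 2). Slc2a3 averaged 2.31 TPM (SD 0.80, n = 5) over WT libraries and 1.44 TPM (SD 0.63, n = 5) over S452A libraries, which is -0.44 log2 units (SE 0.25; -0.57 to -0.31 with 1 library left out). It was the only transporter gene of the set below 0. Pfkp averaged 61.0 TPM (SD 21.003, n = 5) over WT libraries and 75.2 TPM (SD 13.1, n = 5) over S452A libraries. Its difference was 0.34 log2 units (SE 0.20), from 0.24 (without WT library 1) to 0.51 (without WT library 2) with 1 library left out. Acod1 averaged 654 TPM (SD 207, n = 5) over WT libraries and 895 TPM (SD 345, n = 5) over S452A libraries, or 0.43 log2 units (SE 0.28). Without WT library 1 this was 0.24, without S452A library 3 it was 0.27, and the highest value, without S452A library 2, was 0.61. Ldhb differed by -0.34 (SE 0.25), Hif1a by 0.26 (SE 0.21) and Pgd by -0.17 (SE 0.13), and for these and the 3 before them the limma adjusted p was 0.952. With 1 library left out, Ldhb ranged from -0.54 (without WT library 2) to -0.18 (without S452A library 3). Hif1a ranged from 0.12 (without WT library 1, and also without S452A library 3) to 0.37, and Pgd from -0.22 to -0.10 (without S452A library 2) and -0.07 (without WT library 2). Leaving out each library in turn gave 1 or 2 members at an unadjusted limma p under 0.05, except that leaving out WT library 2 gave 6 (Slc2a3, Eno2, Pfkp, Ldhb, Aldoa and Bnip3), beside 5.46% of all genes in that fit. None passed the adjustment in any of them.

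The intervals of Aldoa, Gapdh and Ldha lay within 1 log2 unit. Aldoa averaged 1104 TPM (SD 337, n = 5) over WT libraries and 1215 TPM (SD 154, n = 5) over S452A libraries, or 0.18 log2 units (SE 0.18), and 0.08 to 0.34 with 1 library left out. Gapdh averaged 1099 TPM (SD 169, n = 5) over WT libraries and 1158 TPM (SD 118, n = 5) over S452A libraries, or 0.08 log2 units (95% interval -0.17 to 0.34). Ldha averaged 674 TPM (SD 125, n = 5) over WT libraries and 726 TPM (SD 52.4, n = 5) over S452A libraries, or 0.12 log2 units (95% interval -0.15 to 0.39). The member with the narrowest interval was Taldo1, at 0.00 (SE 0.08, 95% interval -0.17 to 0.18).

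**Figure D4:**
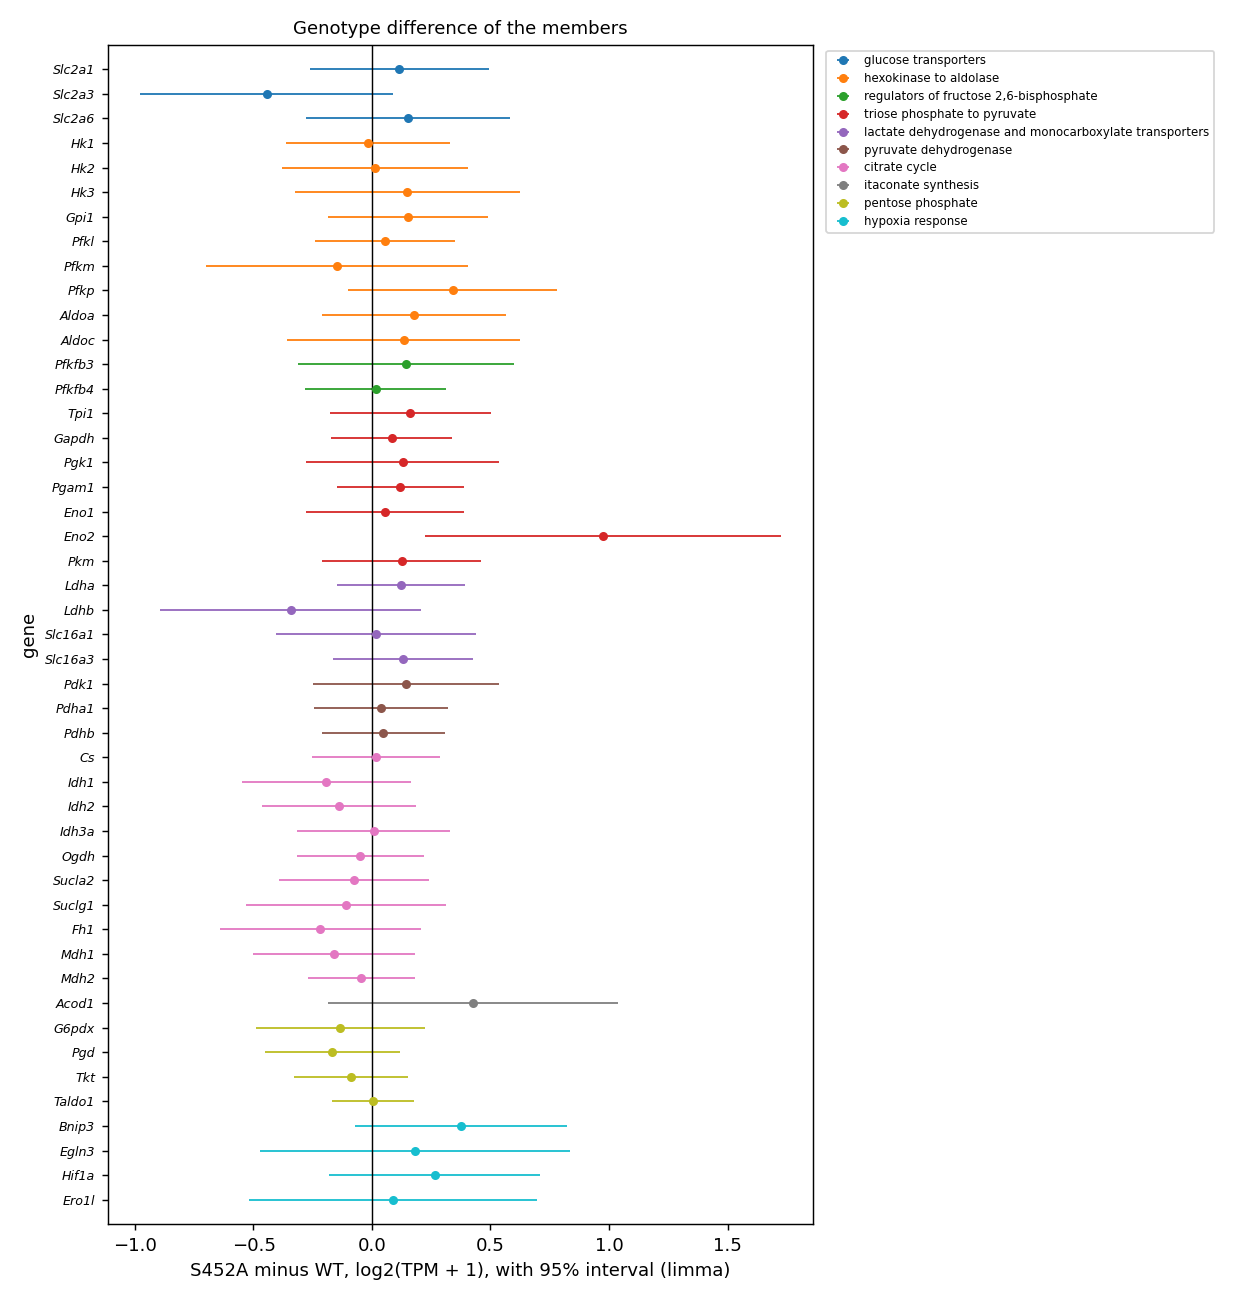
Log2 difference, S452A minus WT, of each member with its 95% interval from limma (n = 5 per genotype), coloured by role. Only the interval of Eno2 (0.22 to 1.73) leaves out 0, and none of the 47 passed after adjustment over 13930 genes.

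**Figure D5:**
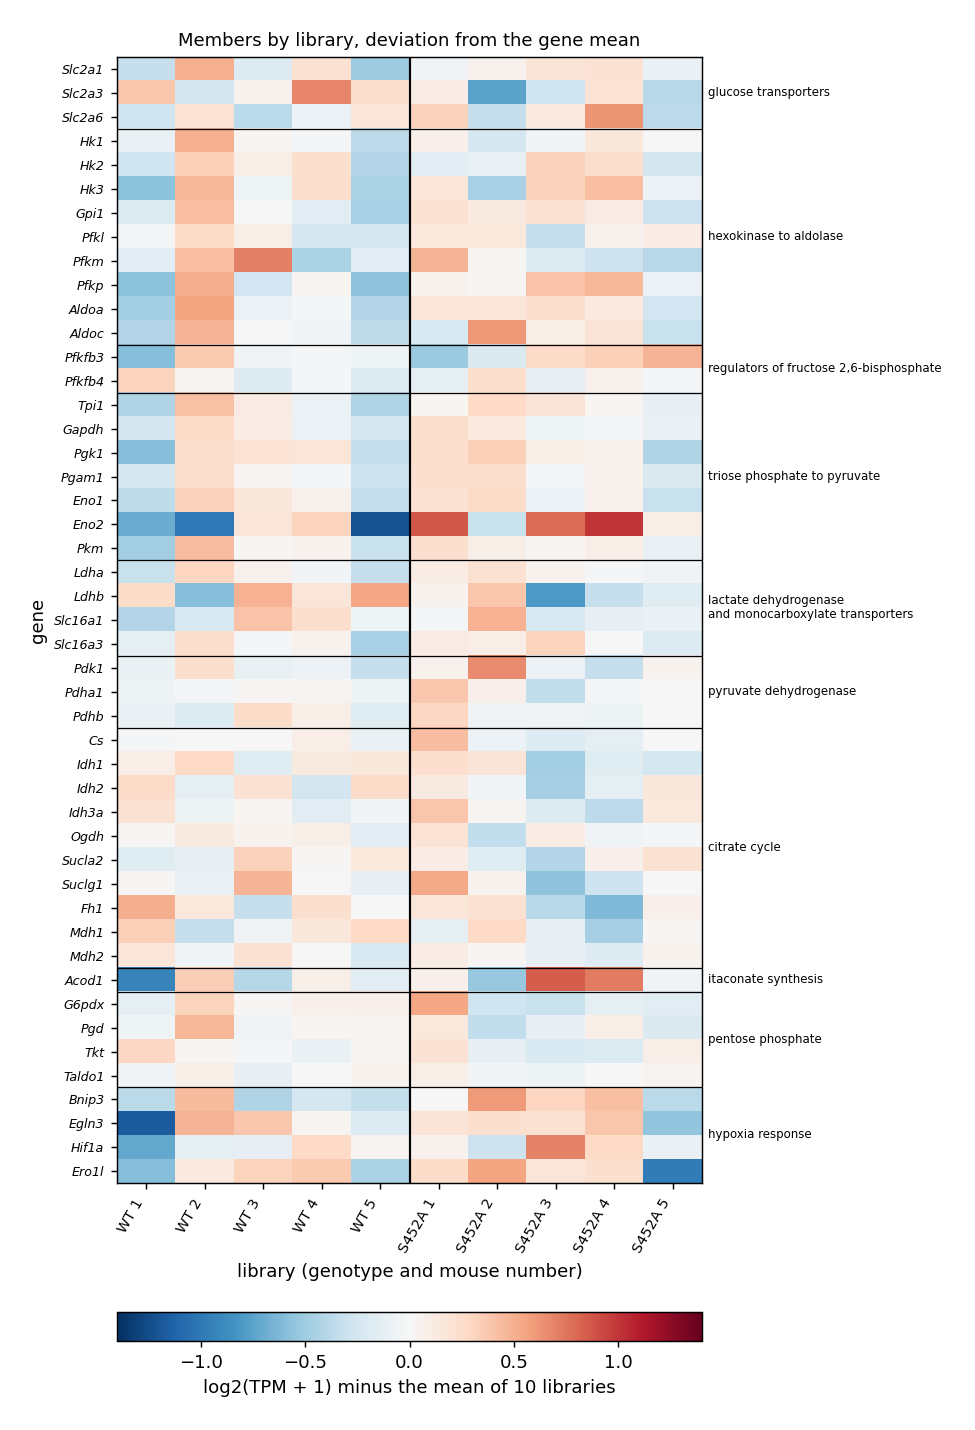
Deviation of log2(TPM + 1) from each gene's mean over 10 libraries, with genes in rows by role and libraries in columns (5 WT left of the black line, 5 S452A right). WT libraries 1 and 5 are the lowest WT libraries for 13 of 16 members from hexokinase to pyruvate kinase, and Eno2 has the widest range, 6.27-fold in TPM.

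Other genes of the same pathways gave the same count of 0 past the threshold. Of 32 further genes of glycolysis and gluconeogenesis, 17 were tested, 6 above 0 and 11 below. The smallest p there were those of Minpp1, a phosphatase that acts on bisphosphoglycerate (12.7 ± 2.72 TPM in WT and 8.32 ± 0.64 in S452A, log2 difference -0.53, SE 0.16), of Pck2, the mitochondrial phosphoenolpyruvate carboxykinase (28.7 ± 5.69 and 20.4 ± 2.32 TPM, log2 difference -0.46, SE 0.15), of Slc2a8, a transporter of internal membranes (log2 difference -0.42), and of Pcx, pyruvate carboxylase (-0.42), each with a limma adjusted p of 0.952. Of 25 further genes of pyruvate entry and the citrate cycle, 23 were tested, 7 above 0 and 16 below, with Sdhb, a subunit of succinate dehydrogenase (-0.19), Pdp2 (-0.30), Me2 (-0.19) and Dld (0.15) at the smallest p. Of 10 further pentose phosphate genes, 8 were tested, 3 above 0 and 5 below, with Rbks (0.17), Dera (-0.12), Prps2 (0.19) and Prps1 (-0.11) at the smallest p. Of the 23 tested hypoxia response genes, 17 lay above 0 and 6 below (median 0.06). Hilpda, a lipid droplet protein gene induced by hypoxia, averaged 394 ± 119 TPM over WT libraries and 583 ± 156 TPM over S452A libraries (log2 difference 0.57, SE 0.21), and Bhlhe40, a transcriptional repressor gene, at 148 ± 17.2 and 192 ± 35.8 TPM (0.36, SE 0.14), each with a limma adjusted p of 0.952. Vegfa differed by 0.38 and Gys1 by 0.32. Among markers of other cells, 6 of 6 fibroblast genes (median -0.62) and 6 of 6 proliferation genes (median -0.28) lay below 0, with none past the threshold, and their part in these differences was not tested.

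Several glycolytic enzymes have near-identical copies elsewhere in the genome that were listed with high TPM, so their own rows hold only part of the signal. A copy was counted where at least 95% of bases matched over at least 0.8 of the shorter transcript, and 11 members had 1 or more, 122 copies in all. Gapdh alone had 102. Copies held 77.5% of the combined TPM for Pgk1 (mainly Gm5537, 100% identical over 1252 bases), 74.4% for Eno1 (Gm4735 and Eno1b), 57.2% for Bnip3 (Gm16439 and Gm6532), 55.3% for Pgam1 (Pgam1-ps2), 36.0% for Gapdh (mainly Gm7336), 34.3% for Gpi1, 33.1% for Pdhb, 30.4% for Ldhb, 29.2% for Pkm, 19.9% for Ldha and 17.2% for Tpi1. The table cannot tell reads of a gene from reads of such a copy, and levels of these 11 are uncertain to that extent. With copies added, Eno1 averaged 1274 ± 251 TPM over WT libraries and 1352 ± 180 TPM over S452A libraries (SD, n = 5) and Pgk1 872 ± 224 and 939.9 ± 164 TPM. The genotype differences were then 0.10 for Eno1, 0.13 for Pgk1, 0.06 for Gapdh and 0.38 for Bnip3, and none passed.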

How the data were processed

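Bulk RNA of 10 mice, 5 per genotype, was analysed from 1 table of TPM values that the authors deposited. A directional kit with 40 ng of input RNA was used, per the labels' protocols. The tools named in the submitters' processing notes are RSEM 1.3.0 and STAR 2.7.9a, and the build named there is GRCm38.p6; annotation, parameters and use of strand in counting: not given in the sources used here. TPM is scaled to length and to a fixed total, so a fall of one class of transcripts raises the others, and depth is unknown.

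Groups came from the sample titles and columns from the descriptions. Genes that reached 1 TPM in 5 or more libraries (13930, 99.6% of TPM) were tested as log2(TPM + 1) with limma 3.58.1 in R 4.3.3 (trend, 2-sided, Benjamini-Hochberg adjusted p under 0.05, genotype as the only term). Isozyme shares were compared by exact permutation, and correlations by permutation, in Python 3.11.15 with numpy 2.4.6. The limma fit and the correlations were checked on simulated data, and the exact permutation on 1 case of known p. Mice are numbered separately in the labels, so p-values measure the spread between mice. Copies were found with blastn 2.17.0 in GENCODE M21, and promoters came from RefSeq tables. The members and gene lists were chosen with earlier results of these data known. All members are named; values per library are given for isozyme families, Bnip3, Acod1, Gapdh and Hif1a, the 8 members of smallest p and the 5 with the highest and lowest r, and of each other list the 4 genes of smallest p. Correlations of further hypoxia genes were picked for display after their values were seen. Alternatives were other pseudocounts, filters, scalings and tests, a replicate block, leaving out each library and, added later, summing of copies.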

Additional observations from a re-analysis of the deposited data

Results flagged for a closer look

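In groups of 5 libraries, 1 library stood far from the other 4 for 10 of 94 member levels and 1 of 30 isozyme shares. The rule was a gap rule (Dixon) that chance alone meets in about 1 of 20 groups. The share of all genes that meet it is not given here, and genes that share a library are not independent. These counts are therefore descriptions and cannot show an excess among the members. In S452A library 5, Gpi1 was low at 248 TPM (nearest other 327) and Aldoa low at 945 TPM (nearest other 1247). In S452A library 1, Pdhb (58.1 TPM), Cs (52.8 TPM) and G6pdx (45.9 TPM) were high. Pfkl was low in S452A library 3 (29.4 TPM), and Slc16a1 was high in S452A library 2 (12.4 TPM). In WT library 2, Bnip3 (105 TPM) and Pgd (143 TPM) were high, and Suclg1 was high in WT library 3 (38.1 TPM). The share of Pfkfb4 in the sum with Pfkfb3 was high in WT library 1, at 34.8% (group median 20.4%).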

How the results depend on the processing

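No member passed limma, no isozyme share passed exact permutation and no correlation of a member with Bnip3 passed under any alternative run for it, so no call on a member depended on the settings. The count of all genes past the threshold in S452A against WT, 1 in the reported fit, was 0 to 1 over the alternatives: it was 0 with genes of at least 1 TPM in all 10 libraries, which leaves that gene out, and 0 with an exact Wilcoxon rank-sum test, whose smallest p is too large for adjustment over so many genes. It stayed at 1 when each library was left out in turn. Rescaling without mitochondrially encoded genes shifts all genes of a library alike, and moved the median difference of all genes from -0.02 to -0.03. With that shift it turned the log2 difference to -0.004 for Hk2, -0.002 for Pfkfb4, -0.002 for Cs, -0.012 for Idh3a and -0.014 for Taldo1, and quantile normalization turned Taldo1 to -0.018. The log2 ratio of Aldoc to Aldoa differed by -0.013, the sign opposite to its share. Leaving out 1 library could turn the log2 difference of 20 members, with ranges of Hk1 -0.11 to 0.10, Hk2 -0.088 to 0.10, Pfkm -0.28 to 0.010, Aldoc -0.002 to 0.27, Pfkfb4 -0.043 to 0.10, Pgk1 -0.004 to 0.25, Eno1 -0.026 to 0.14, Slc16a1 -0.10 to 0.12, Pdk1 -0.004 to 0.24, Pdha1 -0.053 to 0.13, Pdhb -0.020 to 0.12, Cs -0.090 to 0.063, Idh3a -0.089 to 0.10, Ogdh -0.10 to 0.030, Sucla2 -0.14 to 0.017, Suclg1 -0.26 to 0.016, Mdh2 -0.10 to 0.001, Taldo1 -0.024 to 0.026, Egln3 -0.088 to 0.34, Ero1l -0.051 to 0.34. The same held for these shares, in percentage points: Slc2a1 -2.76 to 1.79, Slc2a6 -0.63 to 3.79, Pfkfb4 -3.16 to 1.38, Aldoc -0.037 to 0.034, Idh2 -0.24 to 2.04. The signs of the other 27 members held without any 1 library. The 5 highest and 5 lowest correlations of members with Bnip3 kept their sign in every alternative run over both genotypes. Within each genotype alone (n = 5), that of Ldhb was -0.96 in WT and 0.12 in S452A, while the rest of these kept their sign. Other correlations could turn, as those of Pfkl, Pfkm, Slc16a1, Ogdh and Idh1 did without the 2 libraries farthest from the median of Bnip3. That of Eno2 turned when centred on the genotype means and within each genotype alone. Those of Hk1, Hk3 and Pfkl turned within S452A libraries alone. The mouse numbers give no pairing: the deviations of same-numbered libraries correlated by -0.148 to 0.074, and 0 of 5 WT libraries correlated best with their own number. With the mouse number as a replicate block 1 gene passed over all genes, 0 members passed, and the smallest adjusted p of a member was 0.985; 0 isozyme shares passed, since 5 sign flips allow no p under 0.0625. Depth is unknown, and 5 mice per genotype limit the precision to the intervals given.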
